A study of Homo sapiens with 12 samples.

Results

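IFIT genes encode interferon-induced proteins built from tetratricopeptide repeats, and the 4 human genes described here are IFIT1, IFIT2, IFIT3 and IFIT5. They were found as the rows of the expression table whose single gene symbol is one of these names, which gave 4 rows, 1 for each gene, of 22011 rows in all and of 14432 rows with 1 symbol. The family was chosen from measured values, the levels in cells given a hairpin against MED12 compared with GFP cells, so those values are given as a description without a test.

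Interferons bind receptors on the cell surface, and JAK kinases then activate transcription factors that bind DNA together with IRF9 at interferon-stimulated response elements. IFIT genes are among the genes most strongly switched on this way, and they can also be switched on directly by IRF3 after RNA sensors such as RIGI detect foreign RNA. IFIT1 binds RNA whose 5′ cap lacks 2′-O methylation and blocks its translation, IFIT2 and IFIT3 form complexes with it, IFIT3 stabilises IFIT1, and IFIT5 binds RNA with a 5′ triphosphate. In resting cells of most tissues the transcripts are scarce.

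RNA was measured on 12 arrays in HEK293 cells, a long-established line from human embryonic kidney, with 4 groups and 3 biological replicates in each. Whether the replicates are separate cultures is not stated, so p-values measure the spread between these samples, which may be technical. The cells took up plasmid by lipofection 24 hours after they were plated, were harvested 48 hours later, and sorted for 20 minutes per sample for viable cells with detectable GFP, so every group carries a GFP plasmid and went through transfection. The control group received nuclear localized GFP in pcDNA5/TO. A second group received full-length MED12, which belongs to Mediator's kinase module, with an N-terminal tag of the same nuclear GFP in pcDNA5/TO, and another received MED12 with the C-terminal PQL and Opa domains deleted in the same form. The last group received a short hairpin RNA against endogenous MED12 (MED12 shRNA 5), driven by the H1 promoter in peGFP-C1. It is 1 hairpin in another GFP plasmid than the control's, and the labels name no group with a control hairpin, so hairpin, plasmid and MED12 level cannot be told apart. In bulk RNA, a larger share of cells that make a transcript and more of it per cell cannot be told apart either.

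The MED12 row, a check of the labels, had a log2 level of 4.41 ± 0.34 with GFP, 10.68 ± 0.06 with full-length MED12, 8.92 ± 0.32 with the PQL/Opa-deleted construct and 3.67 ± 0.06 with the shRNA (SD, n = 3 each). Array medians ran from 3.39 to 3.51, and the standard deviation of an array's log2 values over all rows ran from 1.34 to 1.60. The 3 arrays with the narrowest values were replicate 1 of the shRNA, GFP and PQL/Opa-deleted groups. Of the 6 measured markers of HEK293-like cells, VIM, CDH2, NEFM and PAX2 lay above the 75th percentile of rows with GFP. Of the 5 measured leukocyte markers, 0 did in any group, and PTPRC lay at the 8.05th percentile with GFP. The mean log2 level of the leukocyte list was 2.29 to 2.93 on the GFP arrays and 2.46 to 2.85 on the shRNA arrays. Endothelial and fibroblast markers also had 0 members above that percentile in any group. The part of other cell types in the IFIT values was not tested.

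The genes form a cluster on chromosome 10 in the order IFIT2, IFIT3, IFIT1B, IFIT1 and IFIT5. The promoters of 3 members were in a RefSeq promoter table (build GRCh38.p14), with 2 start sites for IFIT3, each window holding 250 bases before and 50 after the start. They are shown because the members share a known route of induction and because their values differ, with IFIT5 apart from the rest. Capitals mark the core of the interferon-stimulated response element, GAAANNGAAA, or TTTCNNTTTC when read on the other strand. The 160 bases before each start, on the plus strand and 5′ to 3′, are as follows.
IFIT1, chr10:89392463-89392622: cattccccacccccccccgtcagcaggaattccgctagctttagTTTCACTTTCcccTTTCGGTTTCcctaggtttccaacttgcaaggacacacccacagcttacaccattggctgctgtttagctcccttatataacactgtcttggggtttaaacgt
IFIT3, upstream start, chr10:89327837-89327996: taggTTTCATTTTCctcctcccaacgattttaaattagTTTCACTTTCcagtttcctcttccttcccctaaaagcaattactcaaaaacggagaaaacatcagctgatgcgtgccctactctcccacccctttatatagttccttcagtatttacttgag
IFIT3, downstream start, chr10:89332369-89332528: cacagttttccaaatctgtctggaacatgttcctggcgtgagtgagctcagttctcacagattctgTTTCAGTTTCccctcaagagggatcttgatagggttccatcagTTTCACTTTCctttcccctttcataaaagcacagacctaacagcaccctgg
IFIT5, chr10:89414408-89414567: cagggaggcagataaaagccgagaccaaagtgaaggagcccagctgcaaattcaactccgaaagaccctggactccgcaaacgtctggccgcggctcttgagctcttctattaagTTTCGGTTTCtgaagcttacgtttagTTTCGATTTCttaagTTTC

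All 4 of these windows held the core motif at least 2 times, and the IFIT5 window held it 3 times, the last match crossing the start site so that only its first 4 bases are shown. Over all 35116 windows in the table, 3.57% held the motif on either strand, 0.259% held it 2 or more times and 0.0370% held it 3 or more times. Among 47 windows of other interferon-stimulated genes, 28 held it (59.6%), 11 held it 2 or more times (23.4%) and 2 held it 3 or more times (4.26%). The window of IFIT1B, the gene between IFIT3 and IFIT1, held 0 matches. The windows of IFIT1 and of both IFIT3 starts held the same 10 bases, TTTCACTTTC, beginning at position -116 in IFIT1 and at -122 and -51 in IFIT3, counted from the start site at 0. In IFIT5 the matches lay closer to the start, beginning at -45, -19 and -4. A TATA sequence (TATATA or TATAAA, plus strand of the gene, 40 to 16 bases before the start, a search added after the sequences had been read) was found in the windows of IFIT1 and the upstream IFIT3 start and not in those of IFIT5 and the downstream IFIT3 start, against 3.10% of all windows. These matches describe letters in a window and are not measured binding sites.

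With the hairpin, all 4 members lay above GFP, and IFIT5 lay above it by less than the other members. IFIT1, the sensor of unmethylated caps, had log2 values of 4.50, 4.60 and 4.86 on the GFP arrays and 6.57, 7.47 and 6.64 on the shRNA arrays (replicates 1, 2 and 3). The groups were far apart, and replicate 2 was the highest of the shRNA arrays. The difference of the means was 2.24 ± 0.27 (SE), a 4.72-fold higher level.

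IFIT2, which also binds RNA and has been linked to cell death, had 3.67, 4.02 and 4.22 with GFP and 6.06, 7.07 and 6.68 with the shRNA. Its shRNA arrays lay well above the GFP arrays, again with replicate 2 highest. The difference was 2.63 ± 0.25 (SE), or 6.21-fold. IFIT3, the partner that stabilises IFIT1, had 3.43, 3.45 and 3.80 with GFP and 5.93, 6.20 and 5.68 with the shRNA. Its shRNA arrays spread least of the 4 members, and the difference was 2.38 ± 0.27 (SE), or 5.20-fold.

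IFIT5, which binds 5′ triphosphate RNA, had 3.37, 3.78 and 4.20 with GFP and 4.21, 5.19 and 4.94 with the shRNA. The lowest shRNA array, replicate 1, lay just above the highest GFP array, replicate 3, at 4.210 against 4.199. The difference was 1.00 ± 0.28 (SE), or 2.00-fold. All 4 members had no overlap between the groups, where 4.71% of all rows had every shRNA array above every GFP array. Since the family was chosen from this comparison, nothing is read from this count.

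**Figure D1:**
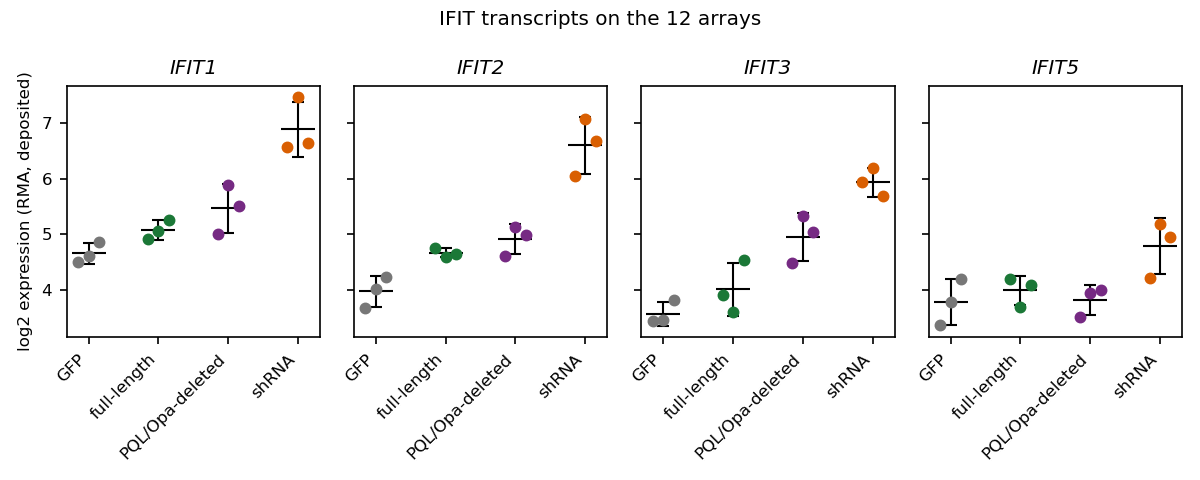
Deposited log2 expression of each IFIT transcript (vertical axis) on single arrays (points, replicates 1 to 3 from left to right) by group (horizontal axis), with the mean and SD (bar, n = 3); levels are not comparable between panels, since each is another set of probes. Every shRNA array lies above every GFP array in each panel, and the PQL/Opa-deleted arrays lie above GFP for IFIT1, IFIT2 and IFIT3, with IFIT5 at 3.81 ± 0.27 against 3.78 ± 0.42.

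The comparison of the PQL/Opa-deleted construct with GFP asks how these genes differ when a shortened MED12 is overexpressed. Its difference uses no hairpin array, though it shares the GFP arrays. The standard error, interval and p-value draw on the spread within all 4 groups, the hairpin group included. IFIT1, IFIT2 and IFIT3 each had all 3 arrays of the construct above all 3 GFP arrays, 3 of 4 members, where 4.13% of rows did. IFIT3 had the widest gap: 4.48, 5.32 and 5.04 with the construct, replicates 1 to 3, against the GFP values above. The lowest of these lay 0.67 above the highest GFP array. The SD of IFIT3 was 0.43 with the construct and 0.21 with GFP (n = 3 each). Its difference was 1.39 ± 0.27 (SE; 95% interval 0.79 to 1.99), a 2.62-fold higher level, the 18th highest difference of 22011 rows. Adjusted over all rows it missed the threshold (limma, adjusted p = 0.860).

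IFIT2 had 4.61, 5.13 and 4.98 with the PQL/Opa-deleted construct, all above its highest GFP array. The difference was 0.94 ± 0.25 (SE; 95% interval 0.39 to 1.49; limma, adjusted p = 1.00). IFIT1 had 5.01, 5.88 and 5.51, with the lowest of these 0.14 above the highest GFP array. Its difference was 0.81 ± 0.27 (SE; 95% interval 0.22 to 1.41; limma, adjusted p = 1.00).

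IFIT5 had the smallest difference of the 4 members with this construct. Its arrays were at 3.50, 3.94 and 3.98, inside the GFP range, and the difference was 0.03 ± 0.28 (SE), with a 95% interval of -0.60 to 0.65 (limma, adjusted p = 1.00). That interval runs from 0.661 to 1.57 times the GFP level, and whether IFIT5 differed from the other members was not tested. With this construct 0 of 4 members passed over all rows (limma; 3 had an unadjusted p under 0.05), where 0.00454% of rows did, the 1 row being MED12. Of all 22011 rows, 761 had an unadjusted p under 0.05 (limma). Replicate 1 was the lowest array of this group for each of the 4 members and also the array with the narrowest values in the group; without the 3 narrow arrays the differences were 0.97 for IFIT1, 0.94 for IFIT2, 1.56 for IFIT3 and -0.026 for IFIT5. Without those arrays 3 members still had no overlap, where 17.9% of rows then did, with 2 arrays a group.

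Full-length MED12 was set against the same GFP arrays. Here IFIT1, IFIT2 and IFIT3 lay closer to GFP than with the PQL/Opa-deleted construct, and IFIT5 did not (0.21 against 0.03). No overlap with GFP was seen for 2 of 4 members, IFIT1 and IFIT2, where 4.03% of rows had all arrays higher. IFIT2 had 4.75, 4.59 and 4.65, the tightest group of any member, all above its highest GFP array at 4.22. The difference was 0.69 ± 0.25 (SE; 95% interval 0.14 to 1.24), or 1.62-fold (limma, adjusted p = 1.00). IFIT1 had 4.90, 5.06 and 5.26, so its lowest array sat 0.04 above the highest GFP array. The difference was 0.42 ± 0.27 (SE; 95% interval -0.17 to 1.02; limma, adjusted p = 1.00).

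IFIT3 was uneven with full-length MED12, at 3.89, 3.59 and 4.53, and the second of these lay below the highest GFP array, although each lay above the GFP array of the same replicate number. The difference was 0.45 ± 0.27 (SE; 95% interval -0.16 to 1.05; limma, adjusted p = 1.00), and it was 0.18 without full-length replicate 3. With the replicate number as a block its adjusted p was 0.967 (limma). IFIT5 had 4.19, 3.69 and 4.08, all within the GFP range, with a difference of 0.21 ± 0.28 (SE; 95% interval -0.42 to 0.83; limma, adjusted p = 1.00). It ran from 0.00052 without GFP replicate 1 to 0.42 without GFP replicate 3. No member passed (limma, 0 of 4; 1, IFIT2, at an unadjusted p under 0.05), where 0.0136% of rows did. Of all 22011 rows, 617 had an unadjusted p under 0.05 (limma). Without the narrow arrays the differences were 0.35 for IFIT1, 0.54 for IFIT2, 0.38 for IFIT3 and 0.00052 for IFIT5.

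**Figure D2:**
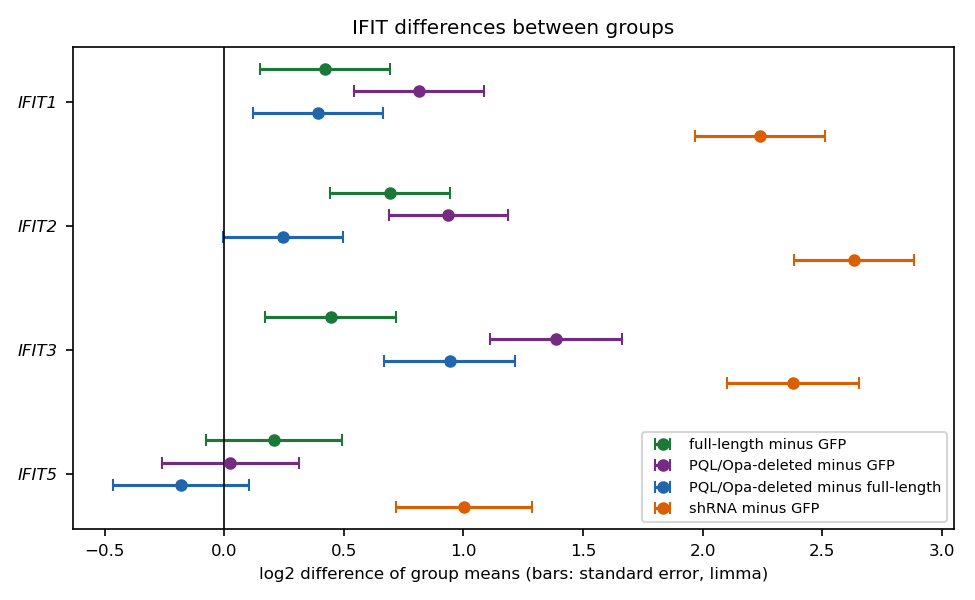
Log2 difference of group means (horizontal axis; points, with the standard error of limma's fit as bars) for each IFIT transcript (vertical axis) in 4 comparisons of 3 against 3 arrays. The shRNA differences run from 1.00 for IFIT5 to 2.63 for IFIT2, those of the PQL/Opa-deleted construct from 0.03 for IFIT5 to 1.39 for IFIT3, and those of full-length MED12 from 0.21 to 0.69; 3 of these comparisons share the GFP arrays.

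The difference between the constructs uses neither the GFP nor the hairpin arrays. Its standard error, interval and p-value draw on the spread within all 4 groups, those arrays included. The MED12 level also differed, at 10.68 with the full-length and 8.92 with the PQL/Opa-deleted construct. MED12 was the 1 row that passed here, at -1.76 (limma, adjusted p = 0.042). The deleted domains and the MED12 level therefore cannot be told apart. IFIT3 was 0.94 ± 0.27 (SE; 95% interval 0.34 to 1.54) above full-length MED12 with the PQL/Opa-deleted construct, a 1.92-fold higher level. In this comparison 2 of the 3 PQL/Opa-deleted arrays lay above every full-length array, and replicate 1, at 4.48, lay just under the highest full-length array at 4.53. The difference missed the threshold (limma, adjusted p = 1.00). For the other members the intervals held 0: IFIT1 differed by 0.39 (95% interval -0.20 to 0.98), IFIT2 by 0.24 (-0.30 to 0.79) and IFIT5 by -0.18 (-0.80 to 0.44). These values moved with single arrays: over the fits that each omitted 1 array, IFIT1 ran from 0.18 to 0.62, IFIT2 from 0.13 to 0.39 and IFIT5 from -0.33 to -0.027. The lowest values of IFIT1 and IFIT2 came without PQL/Opa-deleted replicate 2 and the highest without PQL/Opa-deleted replicate 1; for IFIT5 they came without full-length replicate 2 and PQL/Opa-deleted replicate 1. In all, 0 of 4 members passed (limma; 1 at an unadjusted p under 0.05), where 0.00454% of rows did, and 0 of 4 had every PQL/Opa-deleted array above every full-length array, where 3.09% of rows did. Of all 22011 rows, 419 had an unadjusted p under 0.05 (limma). Without the 3 narrow arrays 3 members had no overlap, where 8.97% of rows did.

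By group means, IFIT1, IFIT2 and IFIT3 had the same order, with GFP lowest, then full-length MED12, the PQL/Opa-deleted construct and the shRNA. For IFIT1 the neighbours in that order that overlapped were full-length and PQL/Opa-deleted, and for IFIT2 the same pair. For IFIT3 GFP overlapped full-length MED12, and full-length MED12 overlapped the PQL/Opa-deleted construct. For IFIT5 the order was GFP, PQL/Opa-deleted, full-length and shRNA, and the first 3 overlapped. The mean over the 4 members, minus the GFP mean, was 0.44 ± 0.20 with full-length MED12, 0.79 ± 0.35 with the PQL/Opa-deleted construct and 2.06 ± 0.40 with the shRNA (SD, n = 3), against a GFP spread of 0.27 (SD, n = 3).

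The members shared the lowest or highest array in some groups and not in others. GFP replicate 1 was the lowest GFP array for all 4 members and replicate 3 the highest. Of the shRNA arrays, replicate 2 was the highest for all 4. Replicate 1 of the shRNA group, a narrow array, was the lowest for IFIT1, IFIT2 and IFIT5, and replicate 3 was the lowest for IFIT3. Of the PQL/Opa-deleted arrays, replicate 2 was the highest for IFIT1, IFIT2 and IFIT3, and replicate 3 for IFIT5. With full-length MED12 the members differed: replicate 3 was the highest for IFIT1 and IFIT3, and replicate 1 for IFIT2 and IFIT5. With GFP, the mean level of IFIT1 lay at percentile 83.7 of all rows, IFIT2 at 70.1, IFIT3 at 55.7 and IFIT5 at 64.3. No detection call was used, so presence above background in GFP cells is not shown.

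Likeness of pattern was measured as the root mean square difference over the 12 arrays between log2 values, each taken minus its own GFP mean, among 14428 other rows with 1 symbol. This measure counts the size of the differences from GFP as well as their shape. It includes the shRNA arrays from which the family was chosen, so a smaller shRNA difference alone sets a row apart. Among themselves, IFIT1 and IFIT2 were 0.30 apart, IFIT1 and IFIT3 0.36, and IFIT2 and IFIT3 0.41, while IFIT5 was 0.78, 0.97 and 1.02 from IFIT1, IFIT2 and IFIT3. The rows nearest to the mean of the members were RIGI, an RNA sensor, at 0.24, PARP14 at 0.30, IFI44 at 0.31, NT5C3A at 0.37, SP110 at 0.39, RSAD2, the gene of viperin, at 0.40, IFITM1, which restricts viruses at cell membranes, at 0.42, and SAMD9 at 0.43. For IFIT1 the nearest rows were IFI44 at 0.28, RIGI at 0.34 and RSAD2 at 0.36. For IFIT2 they were IFI44 at 0.22, RSAD2 at 0.31 and RIGI at 0.52, and for IFIT3 they were RSAD2 at 0.36, IFI44 at 0.41 and NT5C3A at 0.57.

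IFIT5 had other nearest rows: SLFN5 at 0.25, EPSTI1 at 0.26 and TRIM25, a ubiquitin ligase that acts on RIGI, at 0.27. SLFN5 differed from GFP by 0.76 with the shRNA and by 0.19 with the PQL/Opa-deleted construct, EPSTI1 by 0.80 and 0.16, and TRIM25 by 0.71 and 0.36.

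Genes beside the cluster did not pass in any comparison (limma; 7 of the 10 nearest protein-coding genes, 5 on each side, have a row of their own). On the IFIT2 side, LIPA, the lysosomal acid lipase, was 0.55 above GFP with the shRNA. CH25H, the cholesterol 25-hydroxylase, which is itself interferon-inducible, was 0.58 above it. Both had every shRNA array above every GFP array, where 4.71% of all rows did. FAS, a death receptor, was 0.32 above GFP, with overlap. On the IFIT5 side, SLC16A12, KIF20B, HTR7 and RPP30 were at -0.06, -0.30, 0.07 and -0.23 with the shRNA, all with overlap. With the PQL/Opa-deleted construct LIPA, CH25H and FAS were at 0.0026, -0.02 and 0.11. On the other side SLC16A12, KIF20B, HTR7 and RPP30 were at -0.24, -0.55, -0.02 and -0.01 with it. With full-length MED12 the 7 neighbours ran from -0.34 for SLC16A12 to 0.36 for LIPA. All 7 overlapped GFP with either construct.

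**Figure D3:**
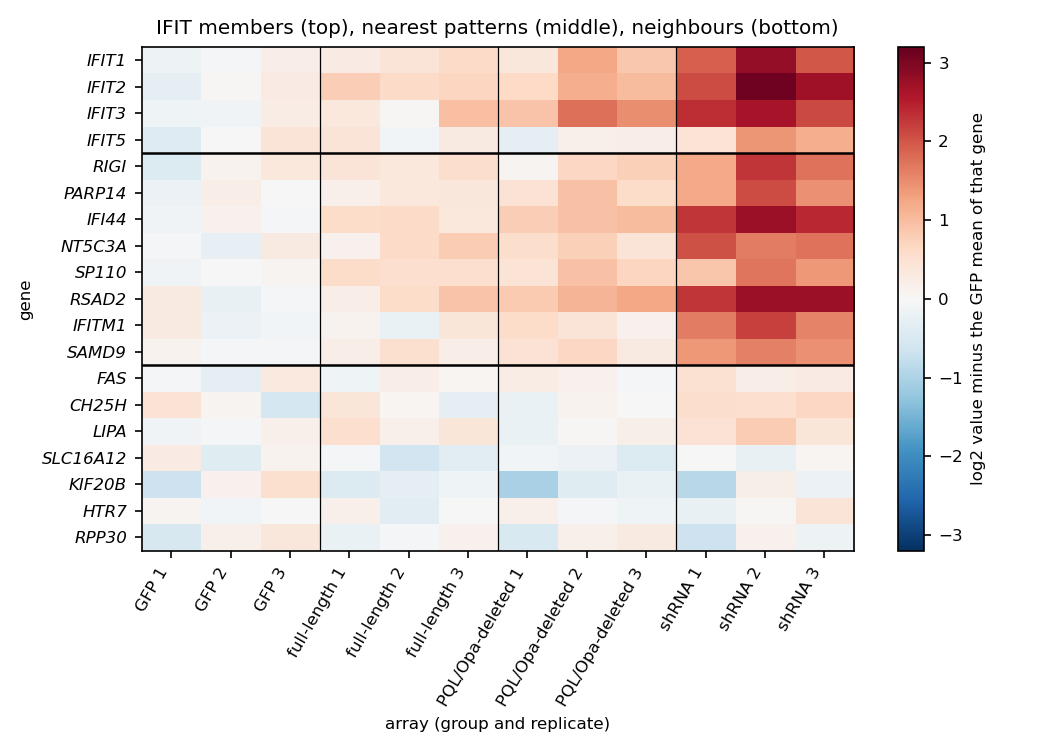
Log2 value minus the GFP mean of each gene (colour) for the 4 IFIT members, the 8 rows nearest to them in pattern and the 7 measured neighbours on the chromosome (vertical axis) on the 12 arrays (horizontal axis). The upper and middle blocks are red on the shRNA arrays and paler on the PQL/Opa-deleted arrays, the middle rows having been selected for likeness, while the highest shRNA difference of a neighbour is 0.58.

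The genes that act before and after the IFIT genes were counted from lists by role. Against GFP, 0.00454% of all rows passed with the PQL/Opa-deleted construct, 0.0136% with full-length MED12 and 0.0681% with the shRNA (limma). With so few rows passing, a count of 0 in a short list does not show that its genes were unchanged. At an unadjusted p under 0.05 (limma) were 761, 617 and 1110 of the 22011 rows in the same order, and 419 between the constructs. Of 16 measured RNA sensors and adaptors, 0 passed in the comparison of either construct with GFP (limma; 0 and 0 at an unadjusted p under 0.05), with medians of -0.02 for the PQL/Opa-deleted construct and -0.06 for full-length MED12, against medians over all rows of -0.0079 and -0.0066. RIGI was 0.51 ± 0.29 (SE) above GFP with the PQL/Opa-deleted construct and 0.43 ± 0.29 with full-length MED12. IFIH1, the sensor of long double-stranded RNA, was 0.36 ± 0.22 and 0.14 ± 0.22 above it, and DHX58, a related regulator, was at -0.19 and -0.07. With the shRNA 0 of the 16 passed (limma; 4 at an unadjusted p under 0.05), the median was 0.13, and RIGI, IFIH1 and DHX58 were at 1.74, 1.26 and 0.23.

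Of 9 interferon genes with a row of their own, 0 passed in the comparisons of the constructs or the shRNA with GFP (limma; 1 with the PQL/Opa-deleted construct, 2 with full-length MED12 and 1 with the shRNA at an unadjusted p under 0.05). IFNB1, the type I interferon that most cells can make, was at 2.14 ± 0.56 with GFP, 1.97 ± 0.32 with full-length MED12, 1.86 ± 0.15 with the PQL/Opa-deleted construct and 2.19 ± 0.13 with the shRNA (SD, n = 3). The groups overlapped, and IFNB1 differed by 0.05 ± 0.26 (SE) between shRNA and GFP. IFNA6, named after its values were seen, had the largest difference of the 9 genes in each comparison with GFP, 1.27 ± 0.34 (SE) with full-length MED12, 0.79 ± 0.34 with the PQL/Opa-deleted construct and 0.80 ± 0.34 with the shRNA; it did not pass in any of these (limma).

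Of 15 measured receptors, kinases and transcription factors of the pathway, 0 passed in the comparisons with GFP (limma; 0, 0 and 1 at an unadjusted p under 0.05 with the PQL/Opa-deleted construct, full-length MED12 and the shRNA), with medians of 0.01, 0.04 and 0.10 in the same order. The receptor chains IFNAR1 and IFNAR2 were at -0.13 and 0.01 with the PQL/Opa-deleted construct and at 0.23 and 0.10 with the shRNA. IRF9, the DNA-binding factor named above, was at 0.23 and 0.10. IRF3 was at 0.04 and 0.35 and IRF7 at 0.18 and 0.23. Every shRNA array lay above every GFP array for 4 of the 15 genes (26.7%, where 4.71% of all rows did), namely IRF3, IRF7, JAK2 and IRF2.

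Other interferon-stimulated genes were mostly above GFP with the PQL/Opa-deleted construct and the shRNA. With the PQL/Opa-deleted construct 32 of 36 measured were above 0, the median was 0.29, 12 had no overlap with GFP (33.3%, where 4.13% of all rows had none), and 0 passed (limma; 9 at an unadjusted p under 0.05). RSAD2 and IFI44 were at 1.05 ± 0.22 and 0.91 ± 0.16 (SE) there. With full-length MED12 26 of 36 were above 0, the median was 0.10, 5 had no overlap (13.9%, where 4.03% of all rows had none) and 0 passed (limma; 5 at an unadjusted p under 0.05). Between the constructs 30 of 36 were higher with the PQL/Opa-deleted one, by a median of 0.17, 6 had no overlap (16.7%, where 3.09% of all rows had none) and 0 passed (limma; 1 at an unadjusted p under 0.05). With the shRNA 36 of 36 were above 0, the median was 0.83 and 28 had no overlap (77.8%, where 4.71% of all rows had none). In that comparison 9 of the 36 passed (limma), where 0.0681% of all rows did in either direction, and all 9 were higher: RSAD2 at 2.60, IFI44 at 2.49, TRIM22 at 2.25, NT5C3A at 1.81, IFITM1 at 1.80, PARP14 at 1.59, NMI at 1.58, SAMD9 at 1.49 and OAS2 at 1.45. This list was written with earlier results of these data known, so its directions and counts are no independent evidence in any of these comparisons. Those with GFP also share the GFP arrays.

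IFIT proteins act on capped RNA and on eIF3, the initiation factor that brings the ribosome to mRNA. Of 6 measured genes of cap formation and recognition 0 passed in any comparison with GFP (limma; 1, 0 and 1 at an unadjusted p under 0.05 with the PQL/Opa-deleted construct, full-length MED12 and the shRNA). In the same order 3, 2 and 1 of the 6 were above 0, with medians of -0.06, -0.06 and -0.20. CMTR1, the enzyme that adds the 2′-O methyl mark IFIT1 fails to bind, was at 0.61 ± 0.25 (SE) with the PQL/Opa-deleted construct, 0.29 ± 0.25 with full-length MED12 and 0.20 ± 0.25 with the shRNA. Of 10 measured eIF3 subunits 0 passed in these comparisons (limma; 0 at an unadjusted p under 0.05 in each), and 7, 10 and 1 were above 0 in the same order. EIF3E, a subunit bound by IFIT1, was at -0.14, 0.25 and -0.06; EIF3C was not analysed here, since no row carries its symbol alone.

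**Figure D4:**
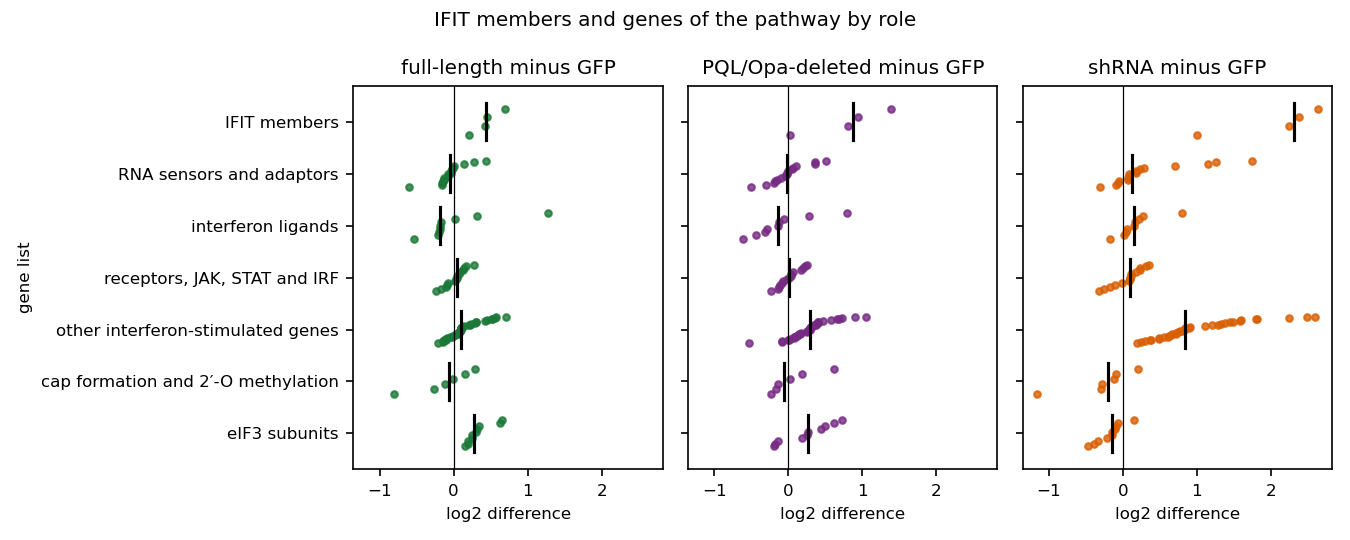
Log2 differences from GFP (horizontal axis) of single genes (points) by list (vertical axis) in 3 comparisons that share the GFP arrays; the black line is the list's median. The IFIT medians are 0.43, 0.87 and 2.31 with full-length MED12, the PQL/Opa-deleted construct and the shRNA, and those of the other interferon-stimulated genes 0.10, 0.29 and 0.83, while interferon ligands and receptors have medians between -0.18 and 0.16.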

How the data were processed

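The authors deposited log2 values, 1 per row (a transcript cluster, the summary of a gene's probes) and array; the submitters' processing notes name RMA, Partek and genome build hg18. For probe set level, background option and filters, the sources used here give nothing. Values were used as deposited, and 0 columns were left out. Gene names came from GEO's platform annotation: 14432 rows have 1 symbol, 2408 several and 5171 none. Gene identifiers of 14404 of the first matched a RefSeq table, and 0 symbols changed.

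A model of 4 group means was fitted to all rows by limma 3.58.1, run under R 4.3.3, over the 12 arrays (lmFit, eBayes; 8 residual and 3.52 prior degrees of freedom; two-sided; Benjamini-Hochberg over all rows; threshold 0.05) and tested on simulated data. The median standard error was 0.23; the number of arrays limits precision, and with 3 arrays a side, 0.1 is the smallest p of an exact permutation test. Lists use 1 row per gene, the one with the highest mean; the text names their members called in any comparison, some fixed by role, the 8 rows nearest in pattern to the members and 3 for each member, and neighbours. Members and lists were chosen with earlier results of these data known. Promoters and neighbours come from RefSeq, GRCh38.p14; array coordinates are not used.

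Same-numbered arrays deviated together in all 3 pairs between the PQL/Opa-deleted and GFP groups (correlations 0.15 to 0.47) and between the full-length and GFP groups (0.10 to 0.23), a pairing seen in the data and not stated in the labels. The range was 0.02 to 0.46 between shRNA and GFP and 0.08 to 0.24 between the constructs. The values 0.47 and 0.46 came from replicate 1, where both arrays were narrow. Deviations were taken from the mean of a group's 3 arrays, so a narrow replicate 1 also shifts those of replicates 2 and 3. Pairing and narrow values therefore cannot be told apart between the GFP group and the PQL/Opa-deleted or shRNA group. Alternatives were quantile normalization, median centring, fits of 2 groups, a variance trend, a filter on low rows, the replicate block, leaving out each array, and leaving out the 3 narrowest arrays.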

Additional observations from a re-analysis of the deposited data

How the results depend on the processing

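In all 20 settings, the reported one and 19 alternatives, 0 of 4 members passed in each of the 3 comparisons tested (limma; the lowest adjusted p over all settings was 0.417, for IFIT3 with the PQL/Opa-deleted construct). With the replicate number as a block the count was 0 in each as well, with IFIT3 at an adjusted p of 0.423 in that comparison; the pairing changed no call. The mean difference over the members ran from 0.65 to 0.98 for the PQL/Opa-deleted construct, from 0.32 to 0.58 for full-length MED12, from 0.21 to 0.54 between the constructs and from 1.85 to 2.24 for the shRNA, and it stayed within 1 SD of the reported value in every setting. IFIT5 with the PQL/Opa-deleted construct turned below 0 without the 3 narrowest arrays (-0.026) and when any of 3 single arrays was omitted: without GFP replicate 1 (-0.18), PQL/Opa-deleted replicate 2 (-0.04) or replicate 3 (-0.06); over the 12 such fits it ran from -0.18 to 0.24. No other member changed sign in any setting. The count of members with no overlap between the constructs went from 0 to 3 without the narrow arrays, an alternative added after the data were seen. Signal over background is unknown, which limits what the smallest levels show.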
